A study of Oryza sativa with 12 samples.

Results

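Sites with bases called in the rice restorer line R9308 and none in Xieqingzao B, the other parent of the hybrid Xieyou9308, made up 5018 of the 249857 sites of the SNP table. A site was a member when a base was called in R9308 at both the tillering and the heading stage, with 10 or more reads at each, and no base was called in Xieqingzao B at either stage. These sites lay in 2228 of 28182 transcripts. The results centre on the 27 transcripts that had 3 or more member sites and no site at all called in Xieqingzao B, which together held 130 member sites. Both sets were chosen by the calls and depths in the parents, so those values are a description without a test, while the calls in the hybrid columns were not used by the rule.

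RNA came from roots of 3 genotypes, the hybrid Xieyou9308, its female parent Xieqingzao B and its male parent R9308, at tillering and at heading, from plants moved from the field to floating plots in nutrient solution. There were 12 samples, 2 roots per genotype and stage, and the authors pooled the roots before calling bases, so that 6 pooled columns were analysed and no spread between roots could be had. The reads at called sites summed to between 9661512 and 13973160 per column, and between 184136 and 207198 sites were called. The identity of the tissue was not checked against root genes, since only 1 of the 23892 loci of the table matched an entry in the gene table used here and none of the member loci did.

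Cultivated rice falls into the indica and japonica groups, which differ by many single bases and also by genes that some cultivars carry and others lack. The reference genome is that of Nipponbare, a japonica cultivar, and a read is placed only where it resembles that reference. Restorer lines carry nuclear genes that bring back pollen fertility in hybrids made with cytoplasmic male sterile plants. Inbred parents carry like copies of each locus, and a first-generation hybrid receives 1 copy from each parent. Transcripts carry the identifiers of the Rice Annotation Project, in which the number after Os is the chromosome and the following number grows along it. Base differences are written as the Nipponbare base, the position counted from the start of the transcript, and the R9308 base.

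A site without a call is not the same as a site without reads. Of the 5018 member sites, 2786 had another site of the table within 10 bases, and at 1794 of these (64.4%) such a neighbour was called in Xieqingzao B. At 1493 (53.6%) the neighbour had 10 or more Xieqingzao B reads. Only 212 member sites lay in transcripts without any Xieqingzao B call, since 4806 (95.8%) had a called site elsewhere in the same transcript. The same rule with the parents exchanged gave 5939 sites, 5.19% of the 114394 sites with 10 or more Xieqingzao B reads at both stages, against 4.34% of the 115528 sites with such depth in R9308 for the member sites. It gave 26 transcripts called in Xieqingzao B and nowhere in R9308.

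In R9308, 1973 member sites (39.3%) had 1 base, identical at tillering and heading, and at 1836 of these it differed from Nipponbare. The other calls were mostly of 2 bases, the Nipponbare base and another. Member sites showed 2 bases in R9308 in 54.4% of cases at tillering and 49.8% at heading. Comparison sites, which had 10 or more reads in both parents at both stages, did so in 32.4% and 22.4% of 78607 cases. The quality score of the R9308 call reached 20 at 78.0% of member sites at tillering and 78.8% at heading, and at 95.4% and 95.9% of comparison sites. Member sites were also nearer to transcript starts, with 11.6% in the first 25 bases against 3.07% of the comparison sites, although none of the 130 sites of the 27 transcripts lay there. Whether lower call quality or position had a part in the missing calls of Xieqingzao B was not tested. Transitions, the exchanges of C with T or of G with A, made up 64.4% of the 1836 differences from Nipponbare (95% Wilson interval, 62.2–66.5) and 65.8% of those at comparison sites. They made up 61 of 77 (79.2%, 68.9–86.8) in the 27 transcripts, where several sites belong to the same transcript and are not independent.

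The member sites were found on all 12 chromosomes. Their share of the sites with 10 or more R9308 reads ran from 2.86% on chromosome 5 (255 of 8921, Wilson interval 2.53–3.23) to 6.84% on chromosome 11 (713 of 10430, 6.37–7.34). Chromosomes 12 and 8 followed with 5.13% (4.67–5.64) and 5.0% (4.52–5.53), and their intervals overlap. For sites called in Xieqingzao B and not in R9308, the highest share was also on chromosome 11, at 7.18%, while chromosome 12 had the lowest, at 3.83%. The 27 transcripts are too few to order the chromosomes. Among transcripts with 3 or more sites of 10 or more R9308 reads, they were 5 of 710 on chromosome 12, with 2 of the 5 from 1 locus, and 4 of 913 on chromosome 7. They were 3 of 1630 on chromosome 1, 3 of 888 on chromosome 6, 3 of 553 on chromosome 9 and 3 of 776 on chromosome 11. Chromosome 3 held 2, chromosomes 2, 4, 5 and 10 held 1 each, and chromosome 8 held none of 698.

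**Figure D1:**
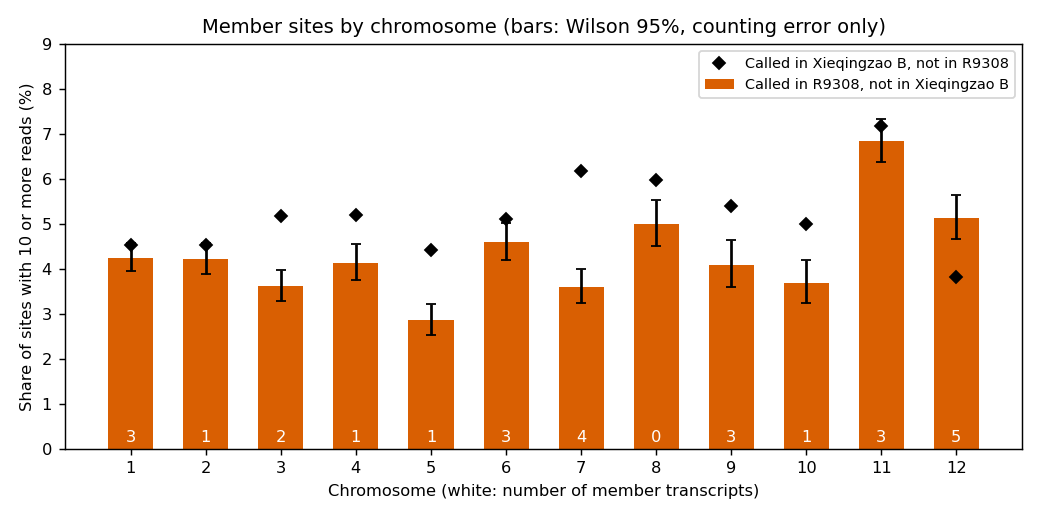
Share of sites with 10 or more reads in a parent that were not called in the other, by chromosome. Bars show sites called in R9308 only, with Wilson 95% intervals, diamonds show sites called in Xieqingzao B only, and white numbers count the transcripts with 3 or more member sites and no Xieqingzao B call. Chromosome 11 had the highest share in both directions, 6.84% and 7.18%.

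The 27 transcripts belonged to 26 loci, and no 2 of these loci were neighbours in the order of the 23892 loci of the table. The closest were Os11g0485000 and Os11g0527700, with 68 loci of the table between them, and Os09g0400600 and Os09g0420200, with 69. Runs appeared only when transcripts with Xieqingzao B calls elsewhere were included, which also made the sets larger. The 26 loci were 0.109% of the loci of the table, and the sets with runs held 2.0% and 8.85%. Whether runs differed beyond the size of the set was not tested. Of the 479 loci with 3 or more member sites in a transcript, 31 runs held 2 or more neighbouring loci and 4 runs held 3. These were Os07g0541800 to Os07g0542400 with 21 member sites, Os11g0222900 to Os11g0223201 with 11, Os11g0691500 to Os11g0691800 with 16, and Os11g0694100 to Os11g0694200 with 22. Of the 4, 3 lay on chromosome 11, which held 83 of the 492 transcripts with 3 or more member sites, the most of any chromosome. At Os11g0694100 to Os11g0694200 all 22 sites had the same single base in R9308 at both stages, with a median of 35.5 reads at tillering and 18 at heading, and 10 and 14 of them were called in the hybrid. Over all 2115 loci with a member site, the longest runs held 6 loci, Os07g0116900 to Os07g0118000 with 24 sites and Os11g0588400 to Os11g0591000 with 22. None of the 24 sites of the first and 6 of the 22 of the second had a single R9308 base at both stages.

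Within transcripts, member sites formed 3638 runs of sites with no other site of the table between them. Of these runs 2871 held 1 site and 80 held 5 or more, with 497 sites in all. The longest held 16 sites, at positions 6 to 25 of Os06t0200700-01, and all of them had 2 bases in R9308. Of the 492 transcripts with 3 or more member sites, 465 (94.5%) also had a site called in Xieqingzao B. The transcript with the most member sites, Os02t0261400-00, had 62 among its 112 sites and 8 sites called in Xieqingzao B, with a median there of 2 reads at tillering and no call at heading. Its member sites had a median of 24.5 R9308 reads at tillering and 22.5 at heading. The hybrid was called at 15 of them at tillering and at 55 at heading. Os03t0372950-01 had 18 member sites of 30, with 192.5 and 74 median R9308 reads and 2 sites called in Xieqingzao B, and the hybrid was called at all 18 at both stages. These transcripts were picked after their values were seen.

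The study lists 38 transcripts that it selected, on these samples, for hybrid reads coming mainly from a single parent's allele, and only these are annotated here. They were selected on SNPs read in both parents, so none could be among the 27 transcripts, but 5 had member sites. Os11t0669100-01, annotated as calmodulin, a calcium-binding signalling protein, had 6 member sites between positions 712 and 1310. Total R9308 depth at C712T was 1550 reads at tillering, of which 417 carried T, and 807 at heading, of which 251 carried T. All 6 sites had 2 bases in R9308 at both stages, and the hybrid was called at A1214G alone, with 126 of 731 reads carrying G at tillering and 224 of 1057 at heading. Xieqingzao B was called at 25 other sites of this transcript and had 202 reads at a site within 10 bases of C712T. Os04t0474300-01, annotated as a glycoside hydrolase family 1 protein, an enzyme family that splits bonds to sugars, had 3 member sites at positions 1946, 1954 and 1981 where R9308 carried only the Nipponbare base. R9308 had 26, 34 and 43 reads there at tillering and the hybrid had 17, 23 and 30, with 8, 11 and 19 of these carrying a second base. At heading the second base had 15 of 21, 15 of 21 and 20 of 27 hybrid reads. The second base was thus read in the hybrid although neither parent had it called. The other 3 of the 5 were annotated as hypothetical genes. In Os01t0273200-00 all 11 member sites had 2 bases in R9308 at 1 or both stages, and the hybrid was called at 3 of them at tillering and at none at heading.

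Sequencing depth in R9308 differed widely among the 27 transcripts. At tillering the median depth over the member sites of a transcript ran from 11 to 263 reads, with a middle value of 29. At heading it ran from 11 to 214, with a middle value of 17. It was higher at tillering in 19 transcripts and at heading in 6. These depths are not scaled between the columns. In 11 transcripts there were 3 member sites, in 4 there were 4, in 4 there were 5, in 3 there were 6 and in 2 there were 7, and the remaining 3 had 8, 10 and 11. The first and the last member site of a transcript were between 15 and 2176 bases apart, with a median of 61. The 27 transcripts held 107 further sites of the table, all of them called in R9308 at 1 stage or both and none called in the hybrid alone. In 12 transcripts every member site had 1 and the same base in R9308 at both stages, in 8 none had, and 7 were mixed.

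Just outside the rule, 362 sites without a Xieqingzao B call had 9 reads at the shallower R9308 stage, against 314 with 10 and 292 with 11. Transcripts with exactly 3 member sites had R9308 medians of 11 to 263 reads at tillering and 11 to 214 at heading. The 10 transcripts with 2 such sites and no Xieqingzao B call had medians of 13.5 to 438.5 and 10 to 177. A further 14 transcripts had 3 or more member sites and exactly 1 site called in Xieqingzao B.

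In the hybrid, 58 of the 130 sites (44.6%) were not called at tillering and 46 (35.4%) at heading. Over all 5018 member sites 40.8% and 34.3% were not called, and over the comparison sites 12.1% and 10.6%. The comparison sites were deeper, with median R9308 depths of 60 reads at tillering and 43 at heading. The medians were 35 and 25 over all member sites and 28 and 17 over the 130. Whether lower depth had a part in the missing hybrid calls was not tested. Depth at the called sites was 1 to 70 reads at tillering and 2 to 80 at heading, against 10 to 279 and 10 to 228 in R9308 over all 130. At tillering 6 of the 27 transcripts had no member site called in the hybrid, and at heading 5 had none, against 147 and 125 of 8485 comparison transcripts with 3 or more comparison sites. Os06t0215950-00, Os09t0400600-01 and Os12t0550800-05 had none at either stage. The hybrid to R9308 depth ratio of a transcript was the sum of hybrid reads over the sum of R9308 reads at the member sites called in the hybrid. Reads of both bases were summed where 2 were called, also where R9308 had 2 bases and the hybrid 1. A ratio over the shared base alone was not computed. The ratio was divided by the median of the same ratio over the comparison transcripts (0.704 at tillering and 0.915 at heading), so that 1 is the level of a typical transcript. In RNA from whole roots, fewer cells of a type and less RNA per cell cannot be told apart in such a ratio.

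At tillering all 21 transcripts with a ratio were below 1, with a median of 0.294, when R9308 reads of both bases were counted. Hybrid depth was at least 1.5-fold below R9308 in 18 of the 21, against 26.9% of all transcripts measured, and at least 2-fold below in 15, against 16.1%. At heading the median was 0.600 over 22 transcripts. Hybrid depth was at least 1.5-fold below R9308 in 13 of the 22, against 11.8% of all, and at least 2-fold below in 7, against 3.93%. It was at least 1.5-fold above in 1, against 13.3%. Of the 19 transcripts with a ratio at both stages, 7 were at least 1.5-fold below at each, against 5% of all. The ratio was higher at heading in 13 of these 19, and in 49.7% of 8299 comparison transcripts. When sites without a hybrid call were counted as 0 reads, the median at tillering was 0.153 and that at heading 0.551. With sites of a single R9308 base only, the median was 0.292 over 11 transcripts at tillering and 0.655 over 10 at heading.

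The ratio has R9308 depth as its denominator, and a minimum of that depth was part of the rule, so these values carry no test. At the member site of each transcript with the most R9308 reads among those called in the hybrid, the 95% interval of the ratio (exact, counting error only) lay below 1 in 14 of 21 transcripts at tillering and in 10 of 22 at heading. It held 1 in 7 of 21 and in 12 of 22. It held 0.5 in 12 of 21 and in 19 of 22, and lay below 0.5 in 6 and in 1. These site ratios were scaled by the comparison median over all sites, so 1 is not exactly the typical level of a best covered site. With comparison transcripts also taken at their best covered site, the median ratio was 0.391 at tillering and 0.654 at heading. The intervals were not recomputed on that scale, and those with an upper end near 1 could then hold it. Comparison transcripts in which Xieqingzao B had less than 0.25 of the R9308 depth, scaled in the same way, had median hybrid ratios of 0.196 at tillering (89 transcripts) and 0.679 at heading (159). The 26 transcripts called in Xieqingzao B and not in R9308 had medians, relative to Xieqingzao B, of 0.690 and 0.714 over 25 transcripts at each stage.

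**Figure D2:**
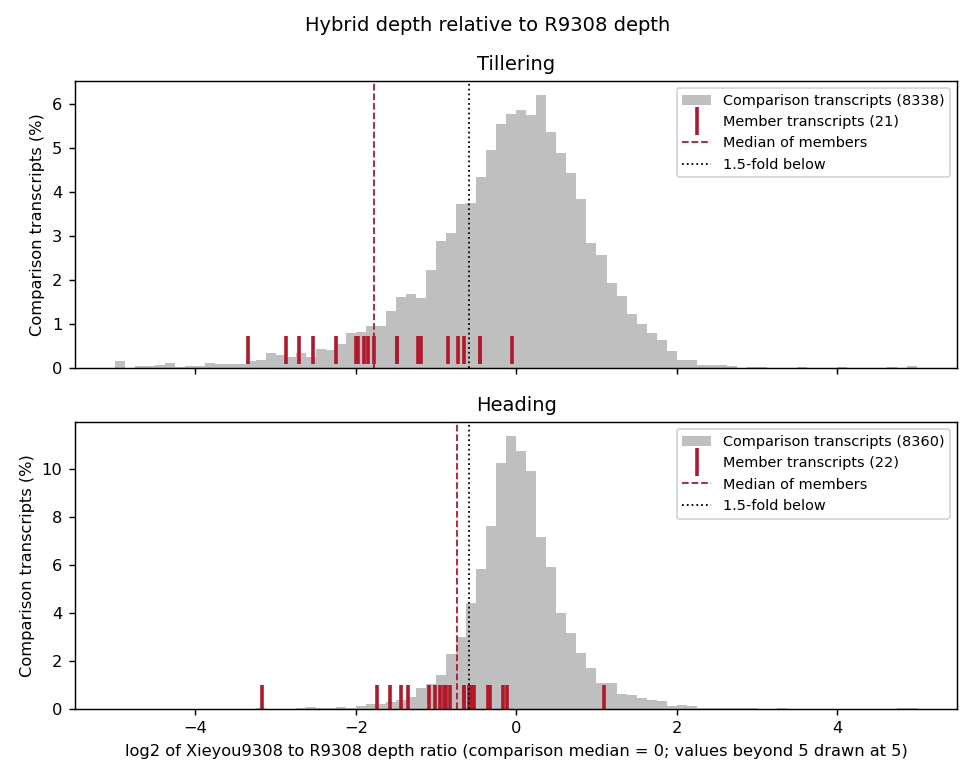
Hybrid to R9308 depth ratio per transcript on a log2 axis at tillering and heading, as the percentage of comparison transcripts in each bin (grey) and as 1 mark for each of the 21 and 22 member transcripts (red). The median of the members, 0.294 at tillering and 0.600 at heading, lies below the line for 1.5-fold below at both stages.

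**Figure D3:**
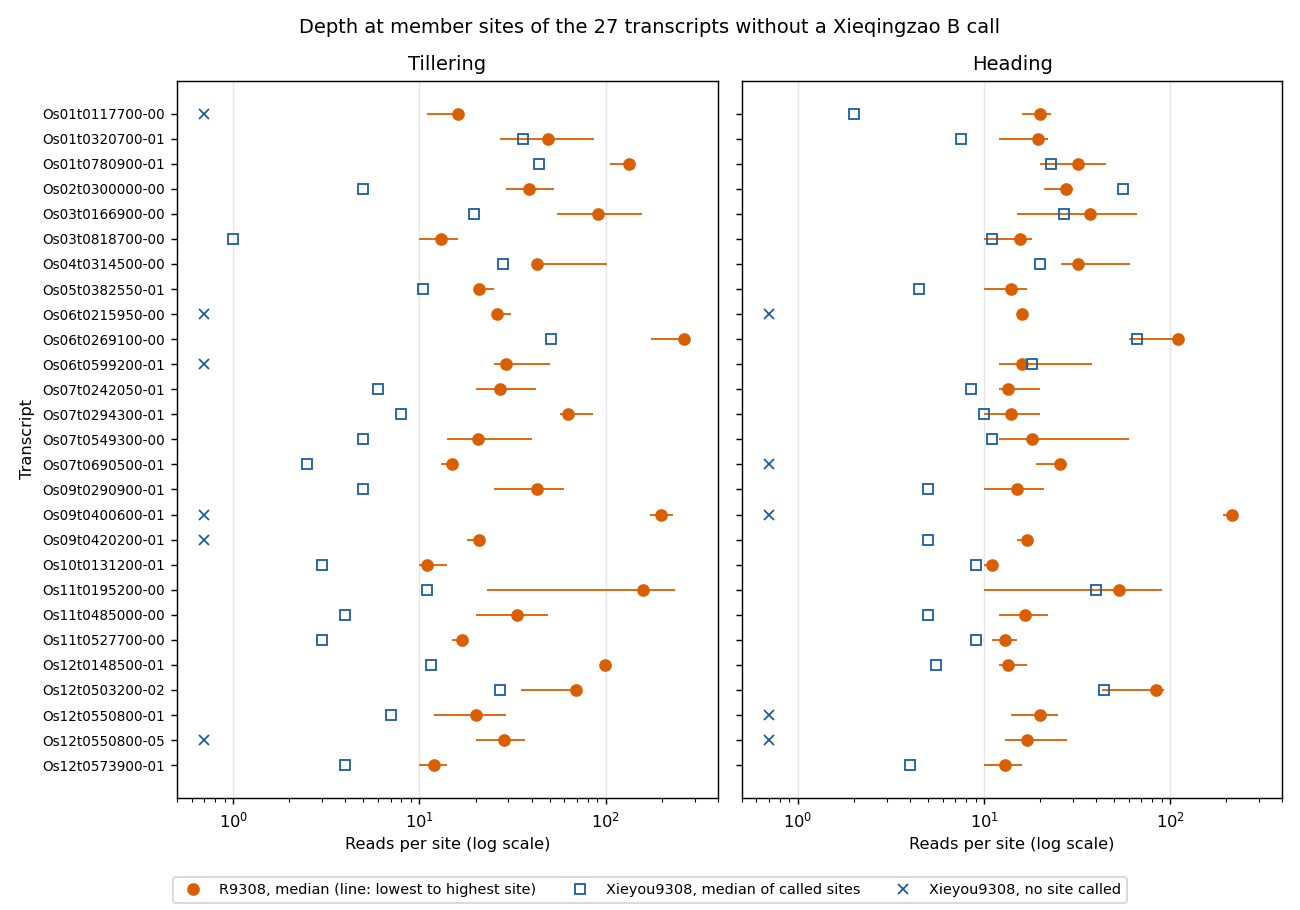
Reads per site (log axis) in R9308 (filled circles, median, with lines from the lowest to the highest site) and Xieyou9308 (squares, median of called sites) for each of the 27 transcripts. Crosses mark the 6 transcripts at tillering and the 5 at heading without a called site in the hybrid.

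Among the transcripts with 1 R9308 base throughout, Os11t0485000-00 on chromosome 11 had 6 sites, between T582G and T949G. R9308 had 40, 21, 27, 20, 49 and 43 reads at tillering, all with the non-reference base, and 16, 12, 17, 16, 22 and 17 at heading. The hybrid had 4, 2, 4, 16 and 11 reads at the 5 sites called at tillering, with C744G uncalled, and 5, 6, 3, 5 and 4 at the 5 called at heading, with T582G uncalled. Every hybrid value was below the R9308 value at the same site. The ratios were 0.294 and 0.299, nearly alike at both stages, and at C886G, the best covered site, 0.464 (0.246–0.830) and 0.248 (0.0735–0.672).

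Os07t0549300-00 on chromosome 7 spanned the widest stretch, from T352C to A2527T, with 8 sites. R9308 had 20, 37, 40, 18, 14, 21, 24 and 14 reads at tillering and 15, 49, 60, 13, 12, 21, 28 and 14 at heading. The hybrid had 25 and 25 reads at G749A and C753T and 3 to 5 at the other called sites at tillering, and 26 and 31 at this pair at heading. It carried the R9308 base alone at each called site. The ratios were 0.604 and 0.547.

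Os07t0690500-01 had 4 sites with 13 to 15 R9308 reads at tillering and 19 to 28 at heading. The hybrid had 3 reads at C212T and 2 at A288G at tillering and was not called at heading, where R9308 was deeper. Os09t0420200-01 went the other way. R9308 had 18, 21 and 21 reads at G1612A, T1632A and C1649T at tillering and 15, 17 and 17 at heading, while the hybrid was uncalled at tillering and had 5 reads at each site at heading. Os06t0215950-00, with 26, 26 and 31 R9308 reads at G297A, G300A and G348T at tillering and 16, 15 and 17 at heading, was uncalled in the hybrid at both stages. In Os11t0527700-00, with all 3 differences C to T within 15 bases, R9308 had 17, 17 and 15 reads at tillering and 15, 11 and 13 at heading, and the hybrid had 3 reads at C146T at tillering and 10, 9 and 9 at heading. Of these 4 transcripts, 1 was thus called in the hybrid at tillering only, 1 at heading only, 1 at both stages and 1 at neither.

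Os12t0503200-02 was among the deepest, with 72, 69 and 35 R9308 reads at C457T, C465T and G501T at tillering and 92, 84 and 43 at heading. The hybrid had 34, 27 and 18 reads and 45, 44 and 18, always with the R9308 base alone, and ratios of 0.638 and 0.534. The quality scores of its R9308 calls were low at tillering, between 4.12 and 14.2, and between 22 and 25 at heading. Os12t0550800-01 and Os12t0550800-05, 2 transcripts of 1 locus, had the most member sites, 11 and 10, and share 3 of them at positions 1058 bases apart, so they are not independent. R9308 had 12 to 29 reads at tillering and 14 to 25 at heading in the first, and 20 to 37 and 13 to 28 in the second. The hybrid was called at 1 of these 21 sites, A2084G of Os12t0550800-01 at tillering, with 7 reads against 28 in R9308. Median quality in R9308 was 17.1 and 15.1 in the first and 22.5 and 30.5 in the second, and reads that could belong to either transcript make their separate counts uncertain.

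Transcripts on chromosomes 3, 6 and 11 carried the same differences at the same positions. Os03t0166900-00, Os06t0269100-00 and Os11t0195200-00 all had G40A, G76C and C98T as member sites, and the first and the last of them also had C51T. No other transcript of the table shared 2 or more of these sites. At G76C, R9308 had 157, 279 and 234 reads at tillering and 66, 110 and 90 at heading, in that order of transcripts. The hybrid had 28 and 51 reads at tillering in the first pair, was uncalled in Os11t0195200-00, and had 40, 66 and 56 at heading. Every call was of the R9308 base alone. Ratios were 0.268, 0.277 and 0.0983 at tillering, the last from C98T alone, and 0.635, 0.677 and 0.688 at heading. Their ratios differed most between the stages among members with a median of 30 or more R9308 reads at both stages. Members outside this limit, such as Os03t0818700-00 and Os07t0294300-01, differed more than Os03t0166900-00 and Os06t0269100-00. The 3 transcripts of chromosomes 3, 6 and 11 share a pattern of sites, and how the reads were divided among them was not tested, so they are not independent. The median over all transcripts was 0.355 at tillering and 0.556 at heading with each group of transcripts that share sites counted 1 time.

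**Figure D4:**
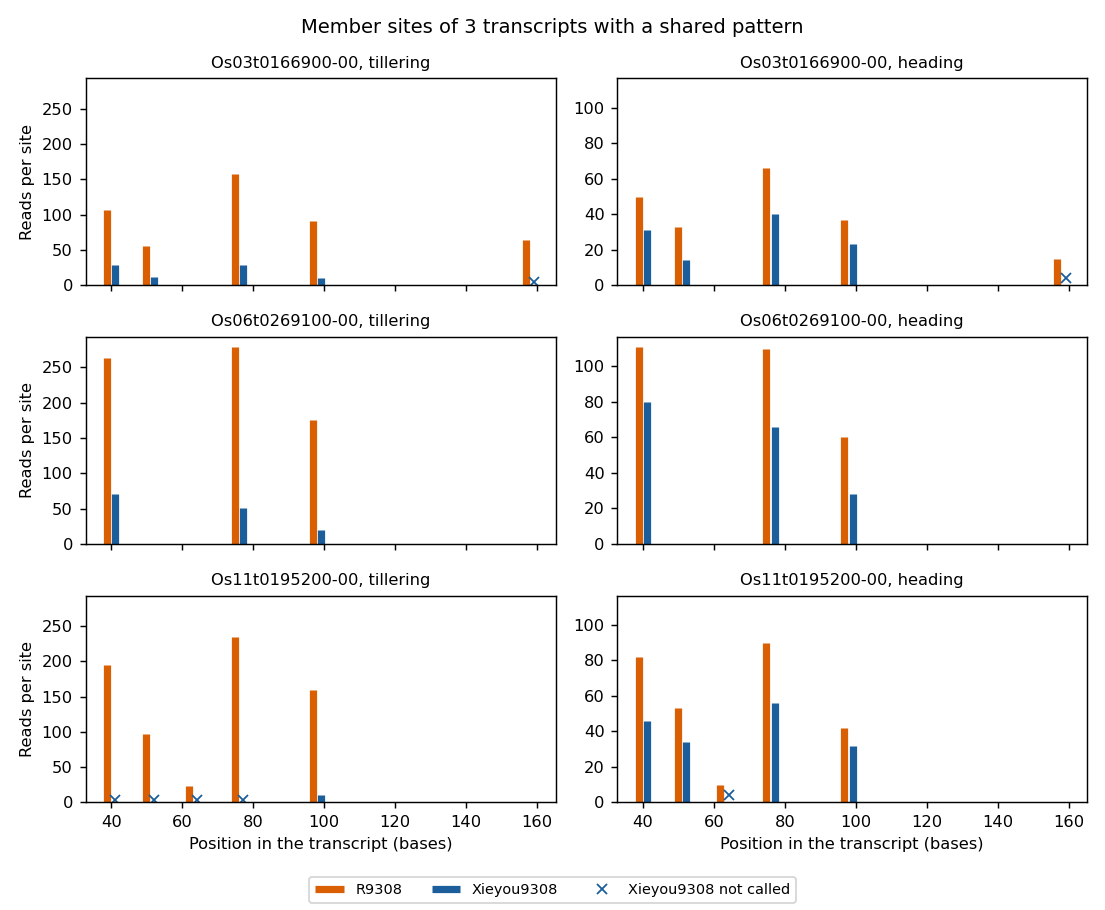
Reads per member site along Os03t0166900-00, Os06t0269100-00 and Os11t0195200-00 in R9308 (orange) and Xieyou9308 (blue) at tillering and heading, with the position in the transcript on the horizontal axis. The sites at positions 40, 76 and 98 recur in all 3 transcripts, R9308 is above the hybrid at each, and crosses mark sites without a hybrid call.

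Sites with 2 bases in R9308 made up 50 of the 130 at tillering and 25 at heading. At 27 sites in 10 transcripts 2 bases were called at tillering and 1 at heading, and at 2 sites the reverse was seen. Comparison sites showed the same direction, with 9391 sites of 78607 changing from 2 bases to 1 and 1525 from 1 to 2. The base at heading was the non-reference base at all 27 sites and at 91.3% of the 9391 comparison sites. Among the 25 of the 27 sites called in the hybrid at tillering, 22 had 1 base there, against 73.9% of the comparison sites. In R9308 the Nipponbare base had a median of 21.4% of the reads at tillering, and 21.9% at the comparison sites. Pairs that can be read as a day and a month with 13 or more other reads were left out. Pairs with both counts at 12 or fewer were kept, although their order is uncertain too. The direction was thus that of the comparison sites. The change from 2 bases to 1 was seen at 20.8% of the 130 sites, against 11.9% of the comparison sites. Over all 5018 member sites, 522 changed from 2 bases to 1 and 291 from 1 to 2. The base at heading was the non-reference base at 56.7% of the 522. Of the 337 of them called in the hybrid at tillering, 61.7% had 1 base there. The Nipponbare base had a median of 47.6% of their R9308 reads at tillering, over pairs chosen in the same way.

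Os01t0780900-01 changed from 2 bases at tillering to 1 at heading at all 5 of its sites. At tillering the Nipponbare base had 68, 63, 62, 84 and 81 R9308 reads at A775G, A794T, T802G, A817G and A819C, and the other base had 38, 60, 72, 52 and 63. At heading only the non-reference base was called, with 20, 43, 45, 22 and 32 reads. The hybrid carried the non-reference base alone at both stages, with 30, 44, 45, 34 and 45 reads at tillering and 13, 23, 26, 17 and 24 at heading. Its ratios were 0.438 and 0.695. The tillering ratios of this paragraph count R9308 reads of both bases, although the hybrid calls were of the non-reference base alone. They therefore do not measure the depth of that base. In Os01t0320700-01, 4 of 6 sites changed in the same way, for example T402C with 17 reads of T and 69 of C in R9308 at tillering and 22 of C at heading. The hybrid had 61 and 14 reads of C. Its ratio of 0.962 was the nearest to 1 at tillering, and it was 0.497 at heading. Os12t0573900-01 had 7 sites, with 10 to 14 R9308 reads at tillering and 10 to 16 at heading. At tillering 6 of the sites had 2 bases, with 1 to 3 Nipponbare reads if the pairs stand in their given order. At heading none had 2 bases. The hybrid had 4 to 6 reads of the non-reference base at tillering and 3 to 6 at heading, and ratios of 0.554 and 0.369. Os12t0148500-01, Os10t0131200-01, Os07t0549300-00, Os07t0242050-01 and Os01t0117700-00 also had 2 bases at tillering at 1 to 3 sites and 1 base at heading at all sites. In Os12t0148500-01, R9308 depth at T72C was 106 reads at tillering and 17 at heading, against 28 and 13 in the hybrid.

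Other transcripts kept 2 bases in R9308 at both stages. The deepest of these, Os09t0400600-01, had 120 Nipponbare reads and 53 others at C990A, 134 and 65 at T998G and 175 and 56 at C1018A at tillering, and 121 and 70, 131 and 83, and 153 and 75 at heading. The hybrid was uncalled at all 3 sites at both stages, although R9308 had 173 to 231 reads. The R9308 quality scores were 5.46 to 20 at tillering and 72 to 132 at heading. Os09t0290900-01 had 7 sites, and the Nipponbare base was read in R9308 at 5 of them at tillering and at all 7 at heading. The hybrid had 6, 5 and 4 reads of the Nipponbare base alone at T1112C, T1235A and T1268A at tillering. At heading it had both bases at T1112C and T1235A, and 5 reads of the non-reference base alone at G1105A. Os05t0382550-01 kept both bases at all 5 sites at each stage, and the hybrid showed both at each of its 4 calls, the deepest being A537C at tillering with 6 and 5 reads. In Os06t0599200-01 the hybrid was called only at G1179A at heading, with 18 reads against 38 in R9308.

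Both bases were also read in the hybrid in Os04t0314500-00, Os07t0294300-01 and Os03t0818700-00. At C418T of Os04t0314500-00, R9308 had 53 reads of C and 48 of T at tillering and 34 and 27 at heading, and the hybrid had 27 and 18 and then 19 and 14. At T455C of Os07t0294300-01, R9308 had 40 and 23 reads at tillering and 7 and 7 at heading, and the hybrid had 3 and 5 and then 4 and 4. In Os03t0818700-00 the hybrid had 1 or 2 reads at each of 4 sites at tillering and 9, 20 and 11 at the 3 sites called at heading. At heading 2 of these 3 had 2 bases there, as had R9308 at the same sites.

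Os02t0300000-00 on chromosome 2 differed from the other 26 transcripts. R9308 had 1 base at all 6 sites, with 37, 53, 29, 40, 35 and 43 reads at tillering and 21, 30, 21, 29, 27 and 28 at heading at positions 37, 57, 100, 126, 137 and 245. The hybrid had 27 reads at A245G, 8 at C37T, of which 5 carried T, and 2, 4 and 5 reads at C100G, C126G and T137C at tillering, the last 3 with the R9308 base alone. At heading it had 42 reads at C37T, 57 at C126G and 65 at A245G, of which 13, 18 and 19 carried the R9308 base and 29, 39 and 46 the Nipponbare base. At T137C all 56 hybrid reads carried C. At position 57, where R9308 has the Nipponbare base G, the hybrid had 20 reads of G and 24 of A. Its ratio was 0.355 at tillering and 2.14 at heading, the only one above 1 at either stage. Reads of a base other than the R9308 base were thus frequent in the hybrid at heading at sites not called in Xieqingzao B at either stage.

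Over all 1973 member sites with a single R9308 base, the hybrid had 10 or more reads at 786 at tillering and 1006 at heading. It carried the R9308 base alone at 73.2% (575 sites, Wilson interval 69.9–76.1) and 76.9% (774 sites, 74.2–79.4). The R9308 base and a second base were both read at 26.1% (205 sites, 23.1–29.3) and 21.8% (219 sites, 19.3–24.4). At 131 and 153 of these sites the R9308 base differed from Nipponbare, and at the other 74 and 66 R9308 itself had the Nipponbare base. The identity of the second base was not tallied. Of the 27 transcripts, 9 at tillering and 8 at heading had sites with a single R9308 base and 10 or more hybrid reads. The R9308 base stood alone at 18 of 19 such sites at tillering and at 19 of 23 at heading. The 4 exceptions at heading were those of Os02t0300000-00. Some of these sites lie in Os03t0166900-00, Os06t0269100-00 and Os11t0195200-00, which share a pattern of sites, so the sites are not independent.

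Where the R9308 base differed from Nipponbare, the hybrid showed the R9308 base alone at 81.1% of 698 member sites at tillering (78.0–83.8) and 83.2% of 912 at heading (80.7–85.5). The R9308 base and a second base, called both bases here, were read at 18.8% and 16.8%. The same measure was taken at comparison sites, where the base of Xieqingzao B is known. Where Xieqingzao B had the R9308 base, the hybrid showed both bases at 1.1% of 24086 sites at tillering and 0.630% of 25701 at heading. Where Xieqingzao B had the Nipponbare base, it showed both at 97.6% of 2725 and 97.9% of 2887. The member sites lay between these, nearer to the first. Median hybrid depth over all called member sites was 16 reads at tillering and 18 at heading, against 39 and 41 at comparison sites. Whether lower depth had a part in the missing second bases was not tested. With no restriction on the Xieqingzao B base, comparison sites showed both bases at 12.5% of 27825 and 11.7% of 29719. Sites of a transcript share reads and PCR copies are not independent molecules, so the intervals cover counting error only.

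**Figure D5:**
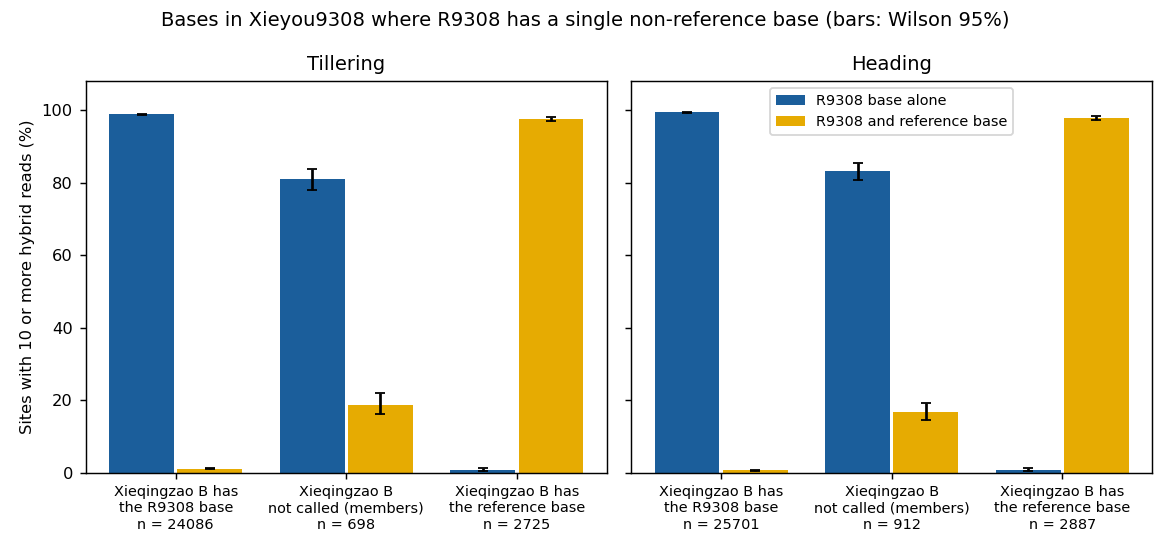
Percentage of sites with 10 or more hybrid reads at which Xieyou9308 showed the R9308 base alone (blue) or the R9308 base with a second base (yellow), for sites where R9308 has a single non-reference base. The second base is labelled as the reference base, but its identity was not tallied. Error bars are Wilson 95% intervals, and member sites showed both bases at 18.8% at tillering and 16.8% at heading, between the comparison sites where Xieqingzao B has the R9308 base (1.1% and 0.630%) and those where it has the Nipponbare base (97.6% and 97.9%).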

How the data were processed

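The authors removed low-quality reads, mapped the remaining 100 bp pairs to the Nipponbare genome (IRGSP build 5.0) with RSEM 1.1.11 and joined the reads of the 2 roots of a genotype at a stage. The submitters' processing notes also name CASAVA 1.8 and SAMtools 0.1.16. The deposited table gives bases, read depth (counts of reads, as pairs at sites with 2 bases) and a quality score per site and column. Pairs with 1 to 12 Nipponbare reads and 13 or more others can be read as a day and a month, so their order is uncertain, while their sum is not. Pairs with both counts from 1 to 12 can be read in this way too, and they were not set apart.

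The members and lists were chosen with earlier results of these data known. By rule, the transcripts named were those with the most member sites, the highest R9308 depth, the extreme hybrid ratios, the largest stage difference or the most sites of 2 hybrid bases, and those listed by the study. The rest of the 27 transcripts and the runs of loci with Xieqingzao B calls were described after their values were seen. Depth ratios, Wilson 95% intervals and exact conditional (Clopper-Pearson) intervals were computed with Python 3.11.15, pandas 2.3.3, numpy 2.4.6, scipy 1.17.1 and matplotlib 3.10.9. The ratio computation was tried on hybrid tillering depths simulated for comparison transcripts alone, so that trial does not cover the member transcripts. Results were recomputed under 15 other settings and under 2 more that were chosen after seeing the data. Expression values per gene were not analysed here. Of 23892 loci, 1 matched the gene table of assembly ASM3414082v1, so other transcripts are given by identifier.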

Additional observations from a re-analysis of the deposited data

Results flagged for a closer look

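The hybrid to R9308 depth ratio of Os02t0300000-00 was 0.355 at tillering and 2.14 at heading, below the level of a typical transcript at one stage and above it at the other. The difference between the stages was not tested, because the roots of each stage were pooled. At position 245, the ratio was 0.892 (exact interval, 0.530–1.48) at tillering and 2.54 (1.61–4.11) at heading. At position 137 it was 0.203 (0.0621–0.520) and 2.27 (1.41–3.73). Of the 5 sites called in the hybrid at heading, position 57 had the lowest ratio, 1.60 (0.986–2.64), and it was not called at tillering.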

How the results depend on the processing

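With at least 5 reads in R9308 in place of 10 there were 50 transcripts. Of those with a ratio, 30 of 35 at tillering and 26 of 38 at heading had hybrid depth at least 1.5-fold below R9308. The shares over all transcripts measured were 28.1% and 13.7%. With 20 reads there were 2889 sites and 12 transcripts, with 7 of 10 and 5 of 9 below, against 26.4% and 10.3% of all. Sites of a single R9308 base alone gave 1973 sites and 14 transcripts, with 10 of 11 and 5 of 10 below, against 26.7% and 12.2%. A minimum of 5 sites per transcript gave 12 transcripts, with 9 of 11 and 7 of 10 below, against 26.7% and 11.1%. At 2-fold, 7 of 22 transcripts were below at heading, against 3.93% of all. With uncalled hybrid sites as 0 reads the median ratio at tillering was 0.153. With a quality score of 20 or more, the R9308 base stood alone in Xieyou9308 at 67.6% of sites at tillering and 71.5% at heading, and with 20 hybrid reads at 65.4% and 71.2%. Where fewer sites were admitted, the counts fell by construction, and the cause of the other changes was not tested. Over 12 alternatives each, the median ratio had a range of 0.153 to 0.395 for tillering and 0.526 to 0.655 for heading. The order-statistic intervals of the medians over transcripts were 0.251–0.554 and 0.472–0.695. The share of a single R9308 base is defined on sites of 1 base, so that alternative gave no other value.

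No paired analysis was possible because the roots were pooled, and for the same reason no replicate could be left out. Depth limits single sites, since 6 transcripts at tillering and 16 at heading had a median below 20 R9308 reads, and a missing call does not say that no read was present.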
